A study of Mus musculus with 2 samples.

Results

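Genes that bind, carry and activate long-chain fatty acids were compared between intestinal RNA labelled as coming from mice that lack Gpcpd1 in the gut and RNA labelled as coming from wild-type mice. The 10 genes were Fabp1, Fabp2, Fabp4, Fabp5, Cd36, Scarb1, Slc27a2, Slc27a4, Acsl3 and Acsl5, taken by gene name from the 26582 gene names on the array, with all of their 16 probes. They were chosen by name for their function, with the measured intensity ratios between the genotypes already known, so these ratios are given as a description, and nothing is read from a test of them. Dietary fat reaches the absorptive enterocyte as fatty acids and monoglycerides, which cross the brush border with the help of membrane receptors and carriers. Inside the cell, small cytosolic binding proteins hold the fatty acid, acyl-CoA synthetases activate it, and most of it is rebuilt into triglyceride and leaves in chylomicrons. Fabp1 and Fabp2 are the abundant binding proteins of the small intestinal epithelium, whereas Fabp4 belongs to fat cells, capillary endothelium and macrophages.

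The RNA labelled knockout came from male mice with a gut-specific deficiency of GDE5, the enzyme encoded by Gpcpd1, which cleaves glycerophosphocholine. The RNA labelled wild type came from male mice without it, and all animals were aged 20 weeks, ate a normal diet and are called C57BL/6 in the series title. A number of 5 mice stands in the series text. The promoter or Cre line behind the deletion, the stretch of intestine taken, any pooling of animals and any sharing of RNA extracts between arrays are not given in the sources used here.

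Each of 2 dual-colour arrays, both of 1 slide, received total RNA of both genotypes, with knockout-labelled RNA in Cy3 in replicate 1 and in Cy5 in replicate 2. The scanner software called 75.3% and 70.3% of spots well above background for knockout-labelled RNA and 69.3% and 76.1% for wild-type-labelled RNA, and it called no spot saturated. All 16 absorptive enterocyte markers on a list of such genes were measured. The ratios of the targeted gene, Gpcpd1, went against the labels: its 4 probes had log2 ratios of 0.68 ± 0.56, 0.62 ± 0.08, 0.47 ± 0.25 and -0.13 ± 0.43, and 3 of them were higher on both arrays. Where in Gpcpd1 the deletion lies was not stated in the labels, so these probes may check nothing, and all directions are those of the dye labels. After the sign of 1 array was turned for the dye swap, the ratios of the arrays correlated at r = -0.38 and rho = -0.41 over 29047 probes. Of these probes, 49 passed 1.5-fold on both arrays with the sign following the genotype and 244 with the sign following the dye. With the scanner software's ratios r was -0.01 and rho -0.15, and 239 probes followed the genotype and 158 the dye.

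Each value below is a log2 ratio of knockout-labelled RNA over wild-type-labelled RNA, with the mean ± SD of the 2 arrays (n = 2), or a normalized intensity in arbitrary units. An offset of 50 was added to all intensities, which pulls the ratios of dim probes toward 0. The number of arrays limits the precision, and the SD covers only the spread between these hybridisations. Each array was normalized on its own. Statements that intensities overlapped or did not overlap set values across the arrays, whereas the ratios pair the genotypes within an array. Intensities of different probes served to pick the brightest probe of a gene and to form summed intensities of marker lists, in which bright probes weigh most. Apart from naming genes that weigh heavily in such a sum, no level of one gene was set against that of another. Because the tissue was measured in bulk, fewer cells of a type and less RNA per cell cannot be told apart.

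Fabp1, the liver-type binding protein that also carries acyl-CoA and other lipids in proximal enterocytes, had the highest ratio of the 10 genes. Its only probe lies on the plus strand at chr6:71154906-71154965 of mm9 and covers the last codons, the stop codon and the first bases of the 3′ UTR. Its sequence is shown because the main result of the family rests on this single 60-base probe. Capitals mark the longest stretch of 14 bases that it shares with a probe of another gene, Homer1. Over the 16 member probes such stretches were between 12 and 16 bases long.
Fabp1 probe: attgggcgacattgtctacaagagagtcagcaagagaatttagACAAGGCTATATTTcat

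The Fabp1 intensity was 9847 and 9257 in knockout-labelled RNA, against 4044 and 3833 in wild-type-labelled RNA. Both knockout-labelled values lay above both wild-type values, and the arrays gave nearly the same distance. The log2 ratios were 1.28 and 1.27, with a mean of 1.28 ± 0.01, or 2.43-fold. The ratio that the scanner software computed was 1.39 ± 0.24 in replicate 1 and 1.21 ± 0.23 in replicate 2, where the error is the software's own estimate for 1 spot.

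Fabp2, the intestinal-type binding protein that is made almost only in enterocytes, had 2 probes, and on both arrays both of them were brighter in knockout-labelled RNA. The brighter probe, at chr3:122602276-122602335 on the plus strand of mm9, had 146580 and 148772 in knockout-labelled RNA, against 75964 and 108598 in wild-type-labelled RNA. The knockout-labelled values were almost equal, and the wild-type values differed between the arrays. Its log2 ratios were 0.95 and 0.45, with a mean of 0.70 ± 0.35, or 1.63-fold. The other probe had 58075 and 59283 in knockout-labelled RNA, against 46002 and 44526 in wild-type-labelled RNA. Its log2 ratios were 0.34 and 0.41, with a mean of 0.37 ± 0.05, or 1.30-fold. The probes thus gave a like value in replicate 2 and differed in replicate 1, so the size of the Fabp2 ratio depends on the probe. It depends on the processing too. With outlier spots kept, the brighter probe had log2 ratios of 0.945 and 0.927, past 1.5-fold on both arrays. Its own spot was marked as an outlier on neither array, so only the marked spots of other probes entering the correction and normalization differed. The scanner software's ratios for the brighter probe were 0.87 and 0.38. The second probe lies in the coding sequence, at chr3:122599692-122599751 on the plus strand of mm9. It is shown because its ratios were close on the 2 arrays, and capitals mark the 16 bases it shares with a probe of Oxsr1.
Fabp2 coding probe: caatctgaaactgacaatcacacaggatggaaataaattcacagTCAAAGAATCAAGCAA

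Fabp5, the epidermal-type binding protein, was close to background. Its probe, at chr3:10016373-10016432 of mm9, had 72 and 69 in knockout-labelled RNA, against 68 and 69 in wild-type-labelled RNA, which overlapped. Knockout-labelled RNA was not well above background there in replicate 2. The log2 ratio was 0.05 ± 0.06.

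Fabp4, the adipocyte-type binding protein, had 3 probes that differed among themselves. The brightest, at chr3:10204452-10204511 on the minus strand of mm9, had 20748 and 19421 in knockout-labelled RNA, against 22670 and 22098 in wild-type-labelled RNA. Its log2 ratio was -0.16 ± 0.04, and all knockout-labelled values were below the wild-type ones. The second probe, whose 60 bases are spread over 730 bases of the genome at chr3:10204533-10205262 and so cross an intron, had 16469 and 17185 in knockout-labelled RNA, against 13444 and 18282 in wild-type-labelled RNA. These values overlapped, and the log2 ratios of 0.29 and -0.09 had opposite signs. The third, dimmer probe, at chr3:10208442-10208501, had 409 and 459 in knockout-labelled RNA, against 605 and 545 in wild-type-labelled RNA. Its log2 ratios were -0.57 and -0.25, with a mean of -0.41 ± 0.22, so its size varied with the array. Both coding probes are shown because they disagree in sign on replicate 1, and capitals mark the 15 bases shared with a probe of Cfp and the 13 shared with a probe of Sptb.
Fabp4 intron-crossing probe: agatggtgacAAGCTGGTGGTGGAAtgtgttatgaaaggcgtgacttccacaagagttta
Fabp4 dim coding probe: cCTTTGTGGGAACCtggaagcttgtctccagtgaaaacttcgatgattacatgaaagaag

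Markers of fat cells, which use Fabp4, stood beside these values. Of 12 adipocyte markers measured, 0 were higher and 5 lower on both arrays, with a median log2 ratio of -0.04. Cfd, the complement factor D secreted by fat cells, was at -0.50 ± 0.03, and the adipokine gene Adipoq at -0.20 ± 0.01. The summed intensity of the list was 39411 and 34212 in knockout-labelled RNA, against 42209 and 43190 in wild-type-labelled RNA. Within that sum Cfd alone had 12578 and 11208 in knockout-labelled RNA, against 17555 and 16144 in wild-type-labelled RNA. The difference between the sums therefore rests largely on this gene and does not describe the whole list. Of the 12 markers, 11 were well above background in all 4 channels. Of 12 endothelial markers 0 were higher and 4 lower, with a median of -0.03 and a summed intensity of 9359 and 8259 in knockout-labelled RNA, against 8737 and 9141 in wild-type-labelled RNA. Of 12 macrophage markers 1 was higher and 0 lower, with a median of -0.06. Their summed intensity was 96888 and 121104 in knockout-labelled RNA, against 142839 and 108475 in wild-type-labelled RNA. Most of that sum was 1 gene, Lyz2, named after its values were seen, with 89253 and 113711 in knockout-labelled RNA, against 134860 and 100879 in wild-type-labelled RNA. The part of these cell types in the Fabp4 values was not tested.

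**Figure D1:**
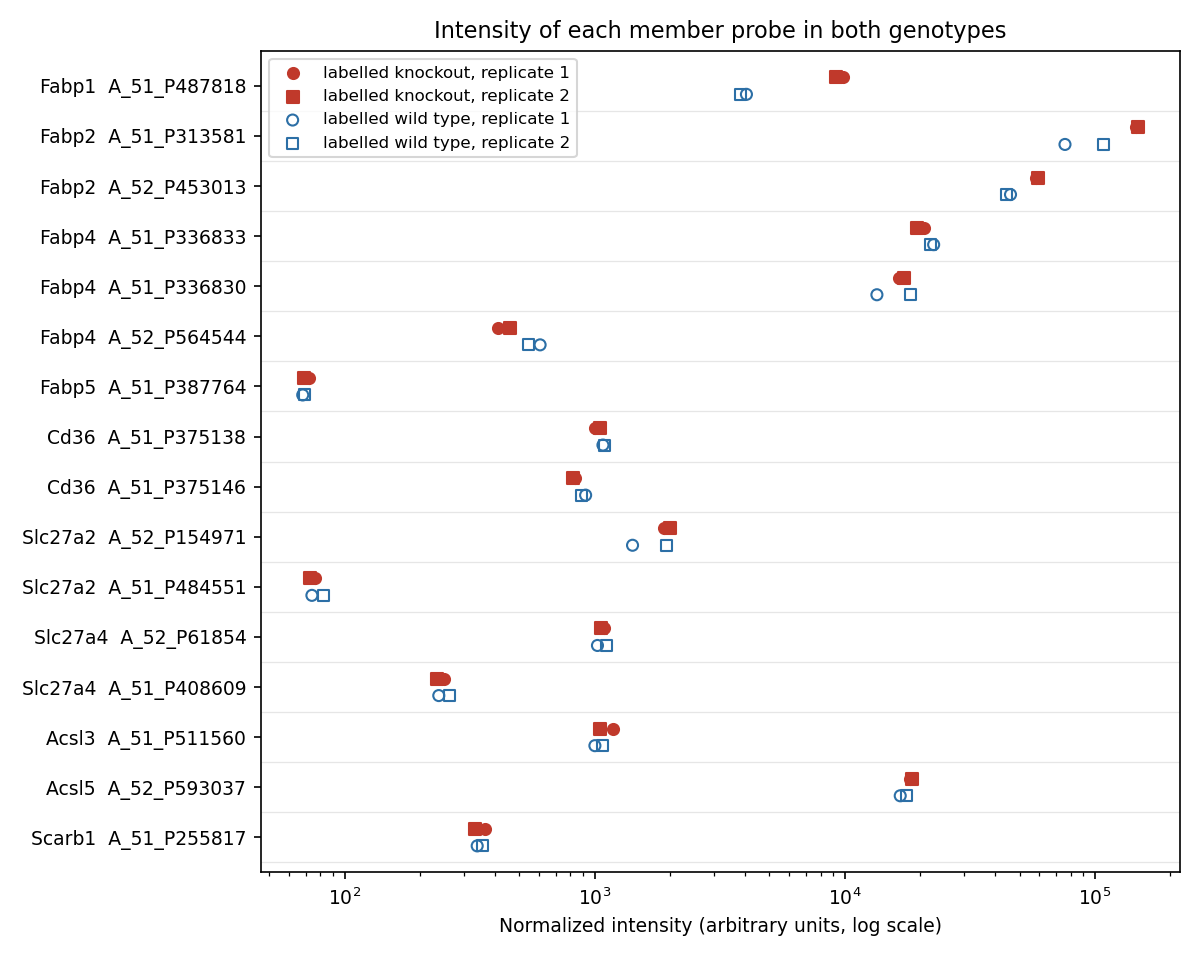
Normalized intensity of the 16 member probes (arbitrary units, log scale), with 1 row per probe. Filled red points are knockout-labelled RNA, open blue points wild-type-labelled RNA, circles replicate 1 and squares replicate 2. In the Fabp1 row both red points lie right of both blue points, and in most rows below Fabp2 the colours lie close together.

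Cd36, a membrane receptor for long-chain fatty acids found in the proximal gut and in endothelium, fat and macrophages, was lower on both arrays at both of its probes. The brighter probe spans 2433 bases of the genome across an intron, at chr5:17289110-17291542 on the minus strand of mm9. It had 1000 and 1047 in knockout-labelled RNA, against 1079 and 1096 in wild-type-labelled RNA, values that did not overlap but lay close together. Its log2 ratio was -0.09 ± 0.03. The other probe, at chr5:17288600-17288659, had 832 and 816 in knockout-labelled RNA, against 920 and 888 in wild-type-labelled RNA, with a log2 ratio of -0.13 ± 0.02.

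Scarb1, the scavenger receptor that takes up cholesterol esters from lipoproteins, did not keep one direction. Its probe at chr5:125757658-125757717 on the minus strand of mm9 had 365 and 331 in knockout-labelled RNA, against 339 and 356 in wild-type-labelled RNA. The values overlapped, and the log2 ratios were 0.11 and -0.11.

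Slc27a2 and Slc27a4 encode fatty acid transport proteins, membrane enzymes that also activate very long-chain fatty acids. Their brighter probes cover a like stretch of both coding sequences, and of 44 overlapping bases 26, or 59.1%, are identical. Both are shown so that the similarity between the family members can be seen, with identical bases in capitals, and both come from the plus strand of chromosome 2 of mm9, at 126413550 to 126413609 for Slc27a2 and 29671115 to 29671174 for Slc27a4.
Slc27a2 probe: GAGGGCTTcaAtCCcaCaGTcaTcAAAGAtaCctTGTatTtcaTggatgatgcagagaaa
Slc27a4 probe: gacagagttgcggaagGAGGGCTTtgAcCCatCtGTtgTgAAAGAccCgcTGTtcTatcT

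This Slc27a2 probe had 1894 and 2001 in knockout-labelled RNA, against 1417 and 1931 in wild-type-labelled RNA, and its log2 ratios were 0.42 and 0.05. Within each array the knockout-labelled value was the higher one, while across the arrays the groups overlapped. Replicate 1 alone carried most of the mean of 0.24 ± 0.26. The second Slc27a2 probe, at chr2:126390415-126390474, was close to background, with 76 and 73 in knockout-labelled RNA, against 74 and 82 in wild-type-labelled RNA. Its log2 ratio was -0.06 ± 0.15. Slc27a4, the main member of this family in the small intestine, had 1094 and 1059 in knockout-labelled RNA, against 1026 and 1117 in wild-type-labelled RNA. Its values overlapped, and the log2 ratio was 0.01 ± 0.12. Its second probe, at chr2:29672404-29672464, gave 249 and 234 in knockout-labelled RNA and 238 and 262 in wild-type-labelled RNA, with a log2 ratio of -0.05 ± 0.16.

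The acyl-CoA synthetases link a fatty acid to coenzyme A, the step that commits it to triglyceride synthesis or oxidation. Acsl5, the form that is abundant in enterocytes, had 18198 and 18545 at chr19:55368743-55369331 in knockout-labelled RNA, against 16666 and 17685 in wild-type-labelled RNA. The groups did not overlap, and the log2 ratio was 0.10 ± 0.04, or 1.07-fold. Acsl3, a form tied to the endoplasmic reticulum and lipid droplets, had 1187 and 1051 at chr1:78702965-78703024 in knockout-labelled RNA, against 1002 and 1071 in wild-type-labelled RNA. Its values overlapped, with log2 ratios of 0.24 and -0.03.

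**Figure D2:**
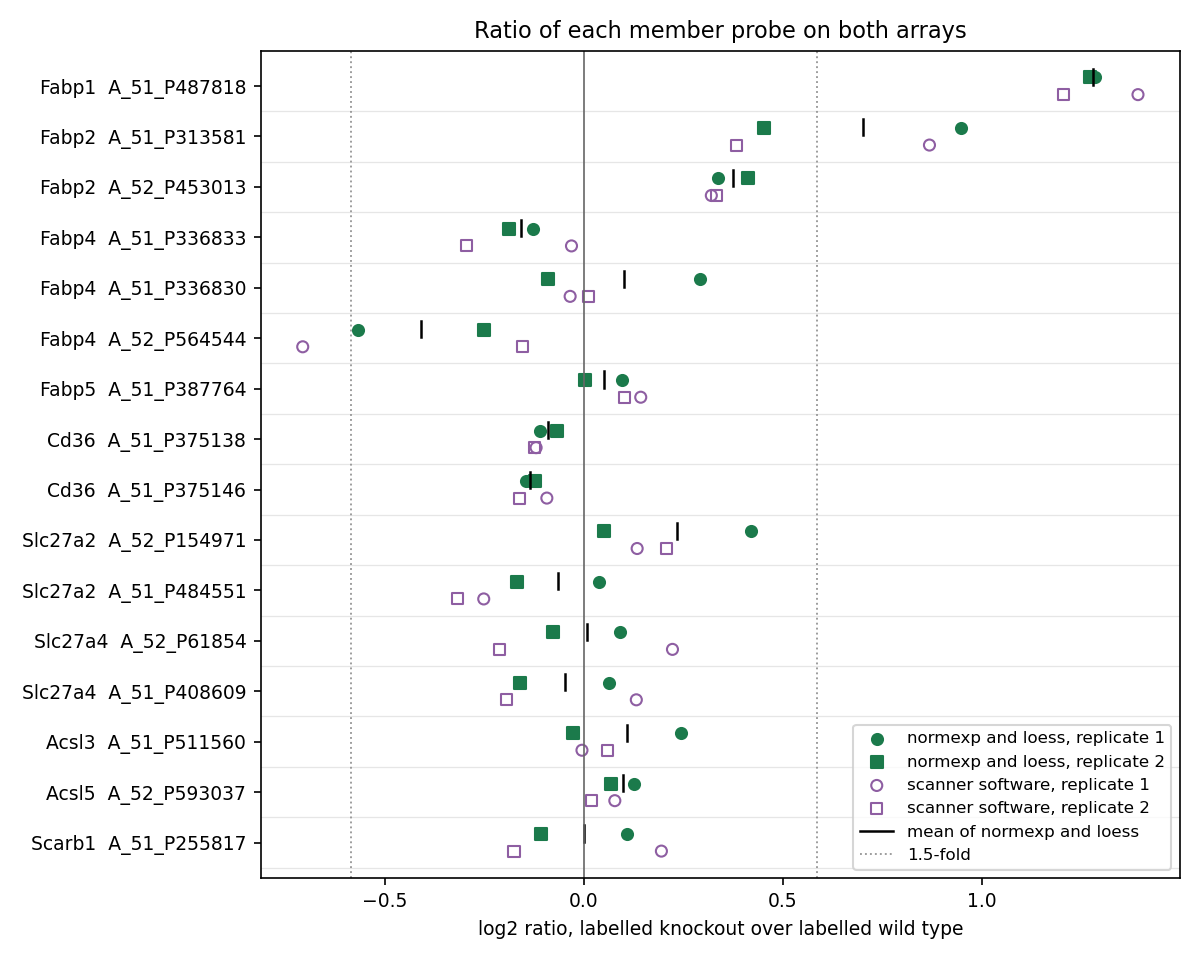
Log2 ratio of knockout-labelled RNA over wild-type-labelled RNA for the 16 member probes, 1 row per probe. Filled green points are normexp-corrected and loess-normalized ratios, open purple points the scanner software's ratios, circles replicate 1, squares replicate 2, the black bar the mean of the green points and dotted lines 1.5-fold. Only the Fabp1 row has all 4 points beyond a dotted line.

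By the brightest probe of each gene, Fabp1, Fabp2, Fabp5, Slc27a2 and Acsl5 were higher on both arrays, Fabp4 and Cd36 were lower on both, and Slc27a4, Acsl3 and Scarb1 had opposite signs. These are 5 of 10 higher and 2 of 10 lower, where 16.9% and 18.1% of all 18988 genes were higher and lower on both arrays. Of the 16 member probes, 6 were higher and 4 lower on both arrays, where 17.4% and 18.8% of all tested probes were. By the scanner software's ratios 6 member probes were higher and 5 lower, where 20.7% and 21.5% of all were. The genes were chosen with this contrast known, so nothing is read from these counts. With median centring in place of loess Slc27a2, Acsl5 and Cd36 had opposite signs on the 2 arrays, and Slc27a2 did so too with outlier spots kept. Acsl3 was higher on both with a normexp offset of 0. In all ways of background correction and normalization that were run, Fabp1 and Fabp2 stayed higher and Fabp4 lower on both arrays by these probes. Another Fabp4 probe had opposite signs, as given above. Fabp5 stayed higher too, but it was close to background. Its replicate 2 log2 ratio was only 0.0044 as reported and 0.0014 with outlier spots kept. The median log2 ratio of the 10 genes was 0.07, against -0.01 for all genes. It was 0.12 in replicate 1 and -0.01 in replicate 2.

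At least 1.5-fold on both arrays was reached by 1 of 16 member probes, that of Fabp1, where 0.120% of all tested probes were that much higher, and by 0 in the lower direction, where 0.0482% were. By the scanner software's ratios it was again the Fabp1 probe alone, where 0.571% of all tested probes were that much higher. A mean log2 ratio within 0.25 of 0 was seen at 12 of the 16, against 92.5% of all tested probes. The limma fit over all 29047 probes, with Benjamini-Hochberg adjustment, called 0 of them at 0.05 and so 0 member probes (0% of all). Unadjusted limma p-values under 0.05 were found for 353 probes, or 1.22%, and for 3 of the 16 member probes, 1 of Fabp1 and both of Fabp2. The same limma fit on the scanner software's ratios called 80 probes, or 0.275%, with higher ones at 0.186% of all tested. Among them was 1 member probe, that of Fabp1, with an adjusted p of 0.00464 and a mean log2 ratio of 1.30. Whether Fabp1 passes the threshold therefore depends on the processing. Nothing is read from passing it, since the gene was chosen with its ratio known. That ratio lay between 1.22 and 1.30 over 13 settings. The settings that change the filter or the probe summary could not move it, since its only probe was well above background in all channels. By array, it ran from 1.07 in replicate 2 with median centring to 1.39 in replicate 1 with the scanner software's ratios. The Fabp2 ratio ranged from 0.45 to 0.95 over the 13 settings, among them the mean of its probes. Both ends of that range are single arrays, which have no limma p. In the settings with a limma fit, the adjusted p of Fabp2 was never under 0.453.

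**Figure D3:**
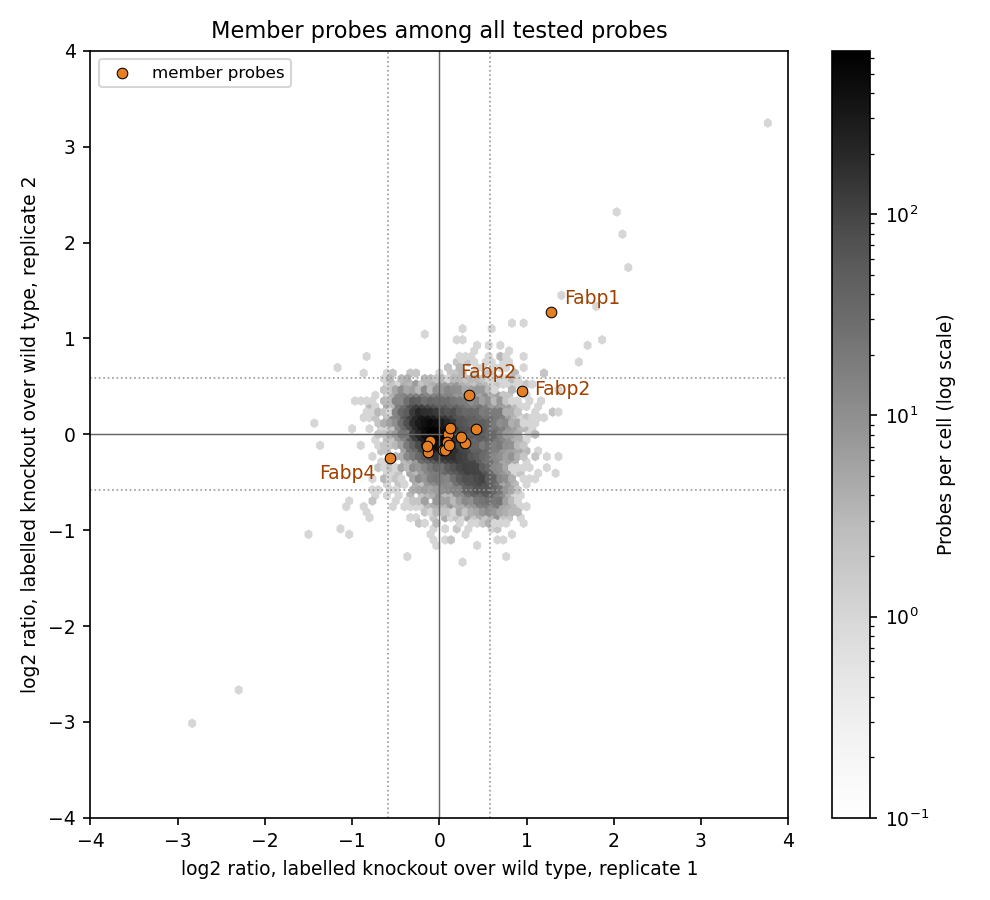
Log2 ratio of knockout-labelled RNA over wild-type-labelled RNA in replicate 1 (horizontal) and replicate 2 (vertical) for the 29047 tested probes, grey by the number of probes per cell, with the 16 member probes in orange and dotted lines at 1.5-fold. The cloud runs from upper left to lower right, the direction of the dyes, and the Fabp1 point lies outside it at the upper right.

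The promoter of Fabp1 is shown because this gene had the highest ratio. The stretch is the 250 bases before the start of the gene in RefSeq, on the plus strand at chr6:71199629-71199878 of GRCm38.p6. Of the 10 genes, 7 matched an entry in the RefSeq promoter table, and Fabp4, Fabp5 and Scarb1 did not. Capitals mark the matches to AGGTCA, the core motif of nuclear receptors, to TTTATG, the motif of the gut factor CDX, each on either strand, and to TATAAA, the TATA box, on the plus strand.
Fabp1 promoter: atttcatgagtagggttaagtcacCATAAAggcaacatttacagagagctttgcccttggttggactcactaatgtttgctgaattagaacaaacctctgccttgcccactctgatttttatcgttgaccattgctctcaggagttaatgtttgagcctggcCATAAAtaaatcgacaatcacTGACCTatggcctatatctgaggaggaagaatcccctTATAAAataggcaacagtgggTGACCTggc

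The AGGTCA matches of Fabp1 began 67 and 9 bases before the start and were on the minus strand, the TTTATG matches 226 and 88 bases before it, also on the minus strand, and the TATA box 30 bases before it. None of these matches overlapped another. AGGTCA was in 14.0% of 32851 promoters, TTTATG in 10.8% and TATAAA in 7.59%. Among the 7 member promoters, AGGTCA was in 3, those of Fabp1, Cd36 and Slc27a2, TTTATG in 3, those of Fabp1, Cd36 and Slc27a4, and TATAAA in 1, that of Fabp1. On either strand, the 7 promoters held no exact match to the direct repeat of AGGTCA with a spacing of 1 base. Nor did they hold one to the HNF4 motif CAAAGTCCA or the GATA motif AGATAA. Of all promoters, 0.0335%, 0.384% and 9.99% held these, in that order. Only exact letters were searched, so a repeat with a changed base was not counted. In Fabp1 the match 67 bases before the start, TGACCT as printed, is followed after 1 base by TGGCCT. That differs from TGACCT at 1 base. The Fabp2 window held no match to any of these letters. A match describes the letters only.

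Around these genes, the rest of the fatty acid pathway was followed over 6 lists of genes. Of the other lipid-binding family, 10 of 14 listed genes were measured, of which 0 were higher and 1 lower on both arrays. That one was Scp2, the sterol carrier protein, at -0.07 ± 0.09, and the median of the list was 0.03. The ileal bile acid binding protein gene Fabp6, named after its values were seen, had opposite log2 ratios of 0.80 and -0.67.

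Of the other fatty acid carriers and acyl-CoA synthetases, 11 of 14 were measured, with 3 higher and 1 lower on both arrays and a median of 0.00. Mfsd2a, the carrier of lysophosphatidylcholine, was at -0.73 ± 0.06, or 1.66-fold lower, and the only gene of these 6 lists past 1.5-fold on both arrays in either direction. The carnitine carrier gene Slc22a5 was at 0.21 ± 0.27 and the synthetase gene Acsbg1 at 0.12 ± 0.09. Among fatty acid sensors and nuclear receptors, 13 of 15 were measured, 6 were higher and 1 lower, and the median was 0.01. Ppara, the receptor that fatty acids activate and that drives Fabp1 in liver, was at 0.26 ± 0.00. Its coactivator gene Ppargc1a was at 0.40 ± 0.34, and Hnf4g, an intestinal transcription factor, at 0.13 ± 0.08.

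All 16 PPAR target genes on the list were measured, with 2 higher and 3 lower on both arrays. Their median was -0.03, from 0.16 in replicate 1 and -0.20 in replicate 2. The thioesterase gene Acot2 was at -0.23 ± 0.06 and the transcription factor gene Creb3l3 at 0.20 ± 0.11. The genes of triglyceride resynthesis and chylomicrons were all 16 measured, 4 higher and 2 lower, with a median of 0.00. Dgat2, which makes triglyceride, was at 0.43 ± 0.29, the chylomicron apolipoprotein gene Apoa4 at 0.32 ± 0.31 and the phosphatidate phosphatase gene Lpin3 at -0.10 ± 0.03. Of 9 cholesterol carriers, 2 were higher and 3 lower, with a median of -0.01. The sterol exporter gene Abca1 was at 0.36 ± 0.06 and the esterifying enzyme gene Soat2 at 0.10 ± 0.01. No gene of these lists was called by limma, and the shares for all genes are the 16.9% and 18.1% given above. Past 1.5-fold on both arrays, 0.158% of all genes were higher and 0.0579% lower.

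Markers of gut cells and regions stood beside the Fabp1 and Fabp2 values, since both genes are made by enterocytes and Fabp1 mostly in the proximal gut. Of the 16 absorptive enterocyte markers 4 were higher and 6 lower on both arrays, and their median was -0.06. Their summed intensity was 831913 and 811566 in knockout-labelled RNA, against 821713 and 836173 in wild-type-labelled RNA. Lct, the brush border lactase, was at 1.41 ± 0.61 and the only one past 1.5-fold, the sugar carrier gene Slc2a2 at -0.23 ± 0.08 and the keratin gene Krt8 at 0.23 ± 0.13. Of 11 proximal small intestine markers 2 were higher and 4 lower, with a median of 0.00. The hormone gene Gip was at 0.44 ± 0.16 and the carboxylesterase gene Ces2c at 0.29 ± 0.19. Their summed intensity was 83427 and 79842 in knockout-labelled RNA, against 75779 and 84496 in wild-type-labelled RNA. Of 12 distal small intestine markers 0 were higher and 5 lower, with a median of -0.07, among them the hormone genes Fgf15 at -0.49 ± 0.23 and Pyy at -0.11 ± 0.07. Their summed intensity was 316232 and 373609 in knockout-labelled RNA, against 408539 and 323635 in wild-type-labelled RNA. The part of gut region and cell makeup in the Fabp1 and Fabp2 ratios was not tested.

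Markers of skeletal muscle and liver were read in the same way. Of 13 skeletal muscle markers 11 were higher and 2 lower on both arrays, with a median of 0.34 (1.47 by the scanner software's ratios), and 5 were at least 1.5-fold higher on both. Myh4, a fast myosin heavy chain, was at 2.18 ± 0.23. The summed muscle intensity was 4114 and 3918 in knockout-labelled RNA, against 2640 and 2513 in wild-type-labelled RNA, and 7 of the 13 were well above background in all 4 channels. Of 9 measured hepatocyte markers, 1 was higher and 6 were lower, with a median of -0.15. That median was -0.25 by the scanner software's ratios, -0.05 with outlier spots kept, -0.04 with no filter on dim probes and -0.05 in replicate 1 alone. Tat, which breaks down tyrosine, was at -1.07 ± 0.10. The summed intensity of the list was 3362 and 3388 in knockout-labelled RNA, against 4902 and 4910 in wild-type-labelled RNA. Within that sum Tat alone had 924 and 1004 in knockout-labelled RNA, against 2038 and 2000 in wild-type-labelled RNA. Fabp1 is also a hepatocyte gene, and the hepatocyte-defining Alb, Fga and Fgg did not pass the filter on dim probes. The part of muscle and liver RNA in the ratios of the 10 genes was not tested.

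**Figure D4:**
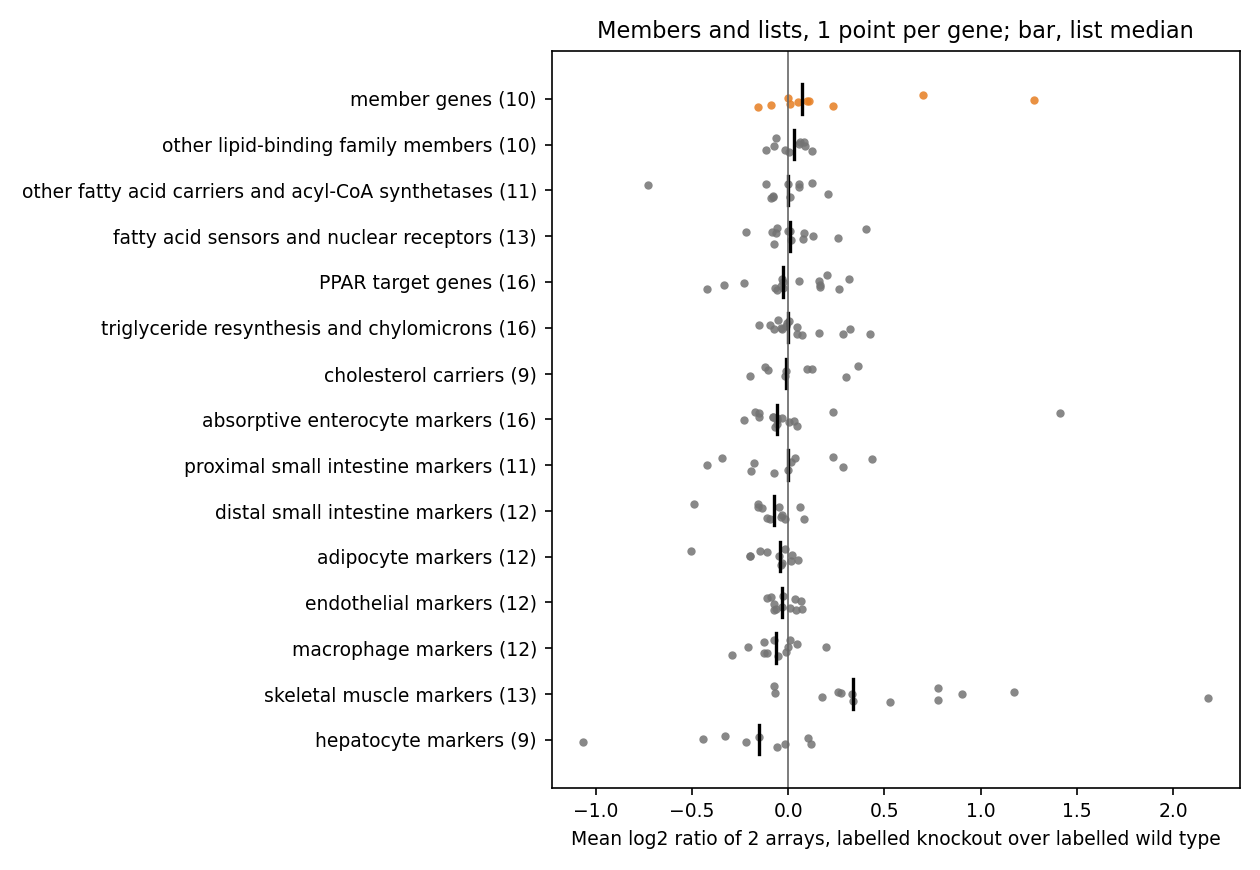
Mean log2 ratio of 2 arrays, knockout-labelled RNA over wild-type-labelled RNA, with 1 point per gene, for the 10 genes (orange) and the 14 lists (grey), the number of measured genes in brackets and the black bar the median. Fabp1 at 1.28 and Fabp2 at 0.70 stand to the right of the other member genes, and the skeletal muscle list has the highest median, 0.34.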

How the data were processed

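Intestinal total RNA was measured on 2 dual-colour Agilent arrays of design 014868 (mm9), with swapped dyes. Per the labels' protocols, extraction used QIAzol and cRNA carried Cy3 or Cy5. The authors' deposited scanner files hold intensity values per spot and channel, with a median local background, made by Feature Extraction 11.5.1.1 per the file headers; the submitters' processing notes name version 9.5. The deposited log10 ratio is background-subtracted, dye-normalized Cy5 over Cy3, converted here to log2, and a deposited p-value column comes from the software's error model, per the file headers. The deposited value table repeats these log10 ratios within 5e-04, has a median of 0 per array and 0 columns of other samples.

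Mean signal and median background were corrected with normexp and an offset of 50, without the 133 and 222 spots marked as outliers, and normalized by loess in which control spots had a weight of 0, using limma 3.58.1 under R 4.3.3. Spots of a probe were averaged, and replicate 1 was turned. Each array has 41174 probes of genes, and 29047 of them, in which at least 1 genotype was well above background on both arrays, entered limma (lmFit, eBayes, ratio against 0, 1 residual degree of freedom, no dye term, Benjamini-Hochberg adjustment at 0.05). Median intensity was 98.7 to 106 per channel, and over 245 probes printed 10 times the median SD of log2 ratios was 0.183 and 0.121. A gene stands for its brightest tested probe. Symbols came from the files, updated through RefSeq accessions for 31441 of 43379 spots, none of them adding a probe to the 10 genes. Both arrays share 1 slide, so no slide effect could be tested.

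The members, lists and tests were chosen with earlier results of these data known. Named are all members, Gpcpd1 and up to 3 genes per list ranked by the array with the smaller absolute ratio, among genes in the same direction on both; some such genes are not reported here. Alternatives were other background corrections, normalizations, filters and probe summaries, and single arrays.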

Additional observations from a re-analysis of the deposited data

How the results depend on the processing

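The limma count over all probes was 0 as reported, 30 with a normexp offset of 0, 80 with the scanner software's ratios, 80 with the deposited value table and 2 with a smooth surface taken off each array. Probes at least 1.5-fold apart on both arrays numbered 49 as reported, 117 with an offset of 0, 239 with the software's ratios, 237 with the value table and 27 with outlier spots kept, and single arrays gave 999 to 1356. Member probes past that fold were 1 as reported, 2 with outlier spots kept (Fabp1 and the brighter Fabp2 probe) and 1 to 2 on single arrays. Members higher were 5 as reported and 3 with median centring, against 5 to 8 on single arrays, and members lower 2, 1 and 2 to 5. Fabp1 passed the limma threshold with an offset of 0 (1.27, adjusted p 0.00342), the software's ratios (1.30, adjusted p 0.00464) and the value table (1.30, adjusted p 0.00474). The value table repeats the software's ratios and is not separate from them. Slc27a4 turned to -0.0026 with an offset of 0, -0.0263 with median centring, -0.0459 with outlier spots kept and -0.02 with the mean of its probes. Scarb1 turned to -0.0071, -0.0118 and -0.0243 under the first 3 of these. The cause of these changes was not tested. The skeletal muscle median was 0.34 as reported and between 0.21 with outlier spots kept and 1.47 with the value table or the software's ratios. With a surface taken off, probes at least 1.5-fold apart numbered 57 in the genotype direction and 49 in the dye direction. Fabp5 had no value where both channels of both arrays had to be above background, and single arrays leave no degree of freedom for limma. The ratios already pair the genotypes within each array and form 1 group, so no further replicate block could be fitted.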

Other observations

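The genes next to Fabp1, Fabp2 and Fabp4 in the RefSeq order of GRCm38.p6 were read after the members' values had been seen, 3 measured genes on each side. Beside Fabp1, which was at 1.28, the neighbours ran from -0.19 ± 0.09 for Thnsl2 to 0.29 ± 0.44 for Krcc1, and Cd8b1, a T cell co-receptor gene, was at 0.26 ± 0.04. Beside Fabp2, at 0.70 by its brightest probe, they ran from -0.11 ± 0.75 for Usp53 to 0.49 ± 0.38 for Fnbp1l, and Synpo2, an actin-binding protein gene of muscle, was at 0.34 ± 0.08. Beside Fabp4, at -0.16 by its brightest probe, they ran from -0.06 ± 0.12 for Fabp12 to 0.27 ± 0.13 for Zfp704, and the adjacent family member Fabp5 was at 0.05 ± 0.06. None of the neighbours was above Fabp1 or the brightest Fabp2 probe, but Fnbp1l was above the other Fabp2 probe, which was at 0.37.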
